A study of Mus musculus with 47 samples.

Results

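The 8 genes described here encode pumps that move calcium and sodium ions in muscle cells, or proteins that regulate them: the calcium pumps Atp2a1, Atp2a2 and Atp2a3, their inhibitors Sln and Pln, and the sodium pump beta subunits Atp1b1, Atp1b2 and Atp1b3. They were taken by gene symbol, as 8 of 45650 symbols, from RNA-seq of mouse C2C12 cells. Atp1b2 was selected on its levels with and without doxycycline (dox) in these libraries, so its values are given as a description with no test.

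The sarco/endoplasmic reticulum calcium ATPases (SERCA pumps) return calcium from the cytosol to the reticulum after each contraction and so let muscle relax. Sarcolipin (Sln) and phospholamban (Pln) are small membrane proteins that bind SERCA pumps and lower their activity. The sodium pump exchanges sodium for potassium at the plasma membrane. Its beta subunits carry the catalytic alpha subunit to the membrane and, through their extracellular domains, also take part in adhesion between cells.

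C2C12 is a mouse myoblast line that stops dividing and fuses into multinucleated myotubes after serum withdrawal. The 47 libraries fell into 16 groups, a with-dox and a without-dox (vehicle) group in each of 8 settings. C2C12 iMyoD1 cells carry a dox-inducible Halo-tagged copy of the muscle transcription factor MyoD1 beside the endogenous gene, and were sampled at 0 h in growth medium, at 24, 48 and 120 h of differentiation as whole cultures, and at 120 h as fractions enriched for myoblasts or myotubes. C2C12 iCdh23 and iMcam cells carry inducible Cdh23, a cadherin, or inducible Mcam, an adhesion molecule of the immunoglobulin family, and were sampled at 48 h. Every group held 3 libraries except the myoblast-enriched group with dox, which held 2 (replicates 2 and 3). The transgenes sat behind a TRE3GS promoter in a PiggyBac vector, the lines were selected with puromycin, and iMyoD1 was a polyclonal population in which dox induced the protein in only part of the nuclei. Dox was present for 24 h in the 0 h and 24 h samples, and from the start of serum withdrawal in the later ones. The fractions were separated by a 40 µm strainer, so each was enriched and not pure. The labels call the replicates biological without saying whether they were separate cultures, so p-values measure the spread between these samples.

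Libraries held between 15066338 and 50950674 estimated counts, with a median of 22837926. The libraries labelled myotube-enriched replicate 2 went against their dox labels in 3 genes checked, Susd2, Mcam and Myog, and whether the 2 were exchanged was not tested. Susd2 was at 1.11 CPM (counts scaled to library size) in the replicate 2 library labelled with dox and at 9.80 and 10.8 in the other 2, but at 9.65 CPM in the replicate 2 library labelled without dox and at 0.631 and 1.19 in the other 2. Mcam gave the same picture, with 1.26 CPM against 12.4 and 15.2 with dox, and 16.2 CPM against 3.08 and 3.47 without. Myog, which was lower with dox at 48 h and in the other 120 h groups, was at 1974 CPM against 576 and 368 with dox and at 428 CPM against 982 and 1720 without. The edgeR tests, ranges and likenesses that rest on the myotube-enriched libraries are therefore given with and without both. Counts assigned to Myod1 averaged 188 ± 9.59 CPM with dox against 178 ± 5.77 without at 0 h (SD, n = 3), and were lower with dox at 24 h (117 against 135 CPM), 48 h (306 against 388) and 120 h in whole cultures (92.0 against 280). Whether the counted reference held the tagged transgene is not given in the sources used here. In iMcam cells Mcam was between 17.1 and 19.8 CPM without dox and between 69.0 and 74.7 with it. Cdh23 was already between 348 and 451 CPM in iCdh23 cells without dox and between 426 and 568 with it, while iMcam cells without dox held 5.61 to 8.86. Of 5 osteoblast and 4 adipocyte markers, lineages that C2C12 cells can enter, only the early factors Runx2 and Pparg averaged over 1 CPM, with group means of 23.0 to 71.8 and 1.45 to 16.8 CPM. Group means reached at most 3.33 CPM for Alpl, 0.631 for Bglap and 0.259 for Adipoq, Plin1, Fabp4, Sp7 and Ibsp, and the summed lists lay between 19.6 and 78.9 and between 0.892 and 18.7 CPM. With dox Pparg fell by 2.43 in iCdh23 cells and fell by 1.94 in whole cultures at 120 h on the log2 scale, Bglap fell in those 120 h cultures, and in iCdh23 cells Runx2 fell and Alpl rose. Their part in the results was not tested.

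Atp2a2 makes 2 main proteins that differ only in their last residues. Atp2a2-201 encodes SERCA2b, the form found in most tissues, and Atp2a2-202 encodes SERCA2a, the form of cardiac and slow-twitch muscle. The 2 transcripts share 2983 coding bases and then diverge, which gives proteins of 1044 and 998 residues. Their coding ends are shown because much of the Atp2a2 result lies in which end was used. The last 30 shared bases are in lower case and the bases particular to each end, stop codon included, in capitals (GENCODE vM21, GRCm38, minus strand; Atp2a2-201 at chr5:122457151-122457332, and Atp2a2-202 spliced within chr5:122454291-122457332).
Atp2a2-201 (SERCA2b): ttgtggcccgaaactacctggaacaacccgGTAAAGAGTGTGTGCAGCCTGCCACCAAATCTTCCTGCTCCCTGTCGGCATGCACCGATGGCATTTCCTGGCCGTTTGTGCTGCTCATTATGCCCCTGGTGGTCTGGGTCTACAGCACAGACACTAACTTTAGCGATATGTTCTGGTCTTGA
Atp2a2-202 (SERCA2a): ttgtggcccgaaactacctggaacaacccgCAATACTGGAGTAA

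Atp2a1 encodes SERCA1, the pump of fast-twitch fibres, and lies on chromosome 7 (GRCm38, 126445858 to 126463108, minus strand). Its promoter is shown because Atp2a1 had the widest range of the 8 genes and because the induced factor of the iMyoD1 line binds E-boxes. The 250 bases before its RefSeq start hold 1 copy of CAGCTG, the E-box form preferred by MyoD1, in capitals, at position −55 from that start (RefSeq, GRCm38.p6, chr7:126463074-126463323, minus strand). The GENCODE vM21 span given above begins further upstream, at 126463108, so the last bases shown lie inside that span.
Atp2a1 promoter: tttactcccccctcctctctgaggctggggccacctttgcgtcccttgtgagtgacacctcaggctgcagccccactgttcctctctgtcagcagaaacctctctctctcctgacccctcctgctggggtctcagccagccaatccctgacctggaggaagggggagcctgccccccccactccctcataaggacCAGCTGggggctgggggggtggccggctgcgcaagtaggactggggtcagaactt
Both strands were searched for CAGCTG and for CANNTG, the general E-box, of which every CAGCTG is one case. Windows of 300 bases around 32851 annotated starts held CAGCTG in 16.3% and CANNTG in 72.31%. Entries were matched for 5 of the 8 genes. The windows of Atp2a3 and Atp1b1 held no CANNTG, each of the 2 windows of Atp1b3 held 1, and that of Pln held 2, one of them a CAGCTG. A match describes letters in a window and is not a binding site.

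**Figure D1:**
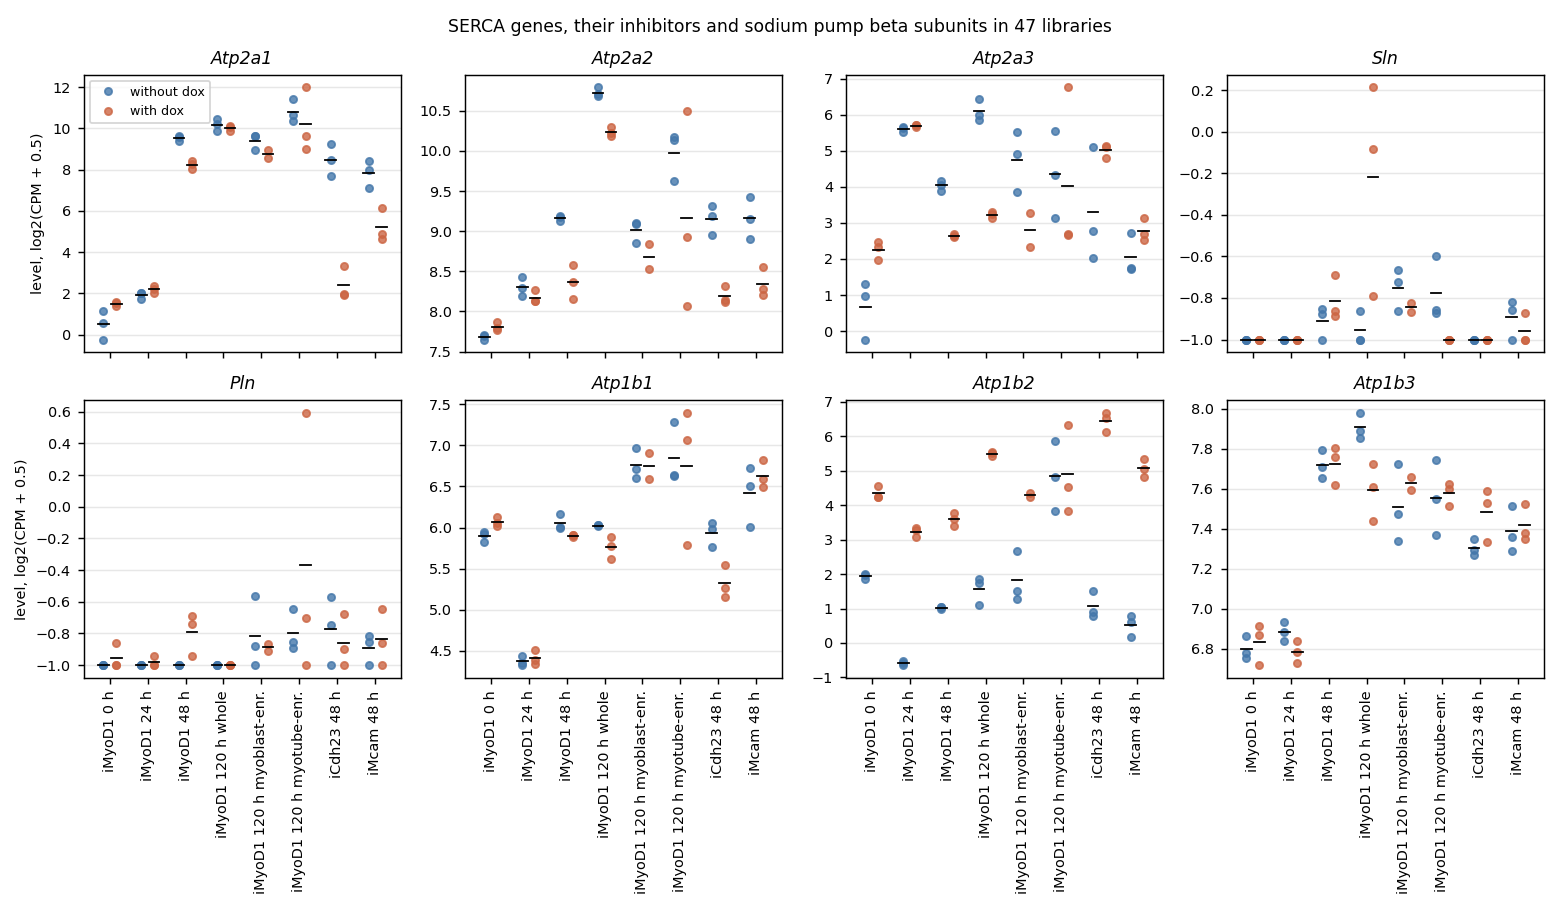
Level of each of the 8 genes in every library, as log2(CPM + 0.5), by line, time and fraction; points are libraries without dox (blue) and with dox (orange), black bars are group means, and each panel has its own vertical scale. In iMyoD1 cells without dox Atp2a1 goes from under 2 CPM at 0 h to a mean of 744 CPM at 48 h, Sln and Pln stay near 0 throughout, and Atp1b2 is higher with dox in every setting except the myotube-enriched fraction, where the groups overlap.

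In iMyoD1 cells without dox, the SERCA genes changed in succession. Atp2a1 was at 1.73, 1.00 and 0.349 CPM at 0 h, at 3.49, 3.62 and 2.77 CPM at 24 h, at 793, 762 and 678 CPM at 48 h and at 1412, 1205 and 927 CPM in whole cultures at 120 h. No 2 successive time points overlapped. A gene counted as changed where edgeR's quasi-likelihood test, run over all genes with enough counts, gave a Benjamini-Hochberg adjusted p under 0.05 and more than a 2-fold difference. Of the 8 genes, 5 passed that filter in every one of the 2-group comparisons and were tested, Sln and Pln did not pass it, and Atp1b2 is described without a test. Between 0 and 24 h, 3 of the 5 changed, beside 26.1% of all genes tested. Atp2a1 rose by a log2 fold change of 1.75 ± 0.36 (SE, adjusted p = 0.000628). Between 24 and 48 h, 3 of the 5 changed (30.4% of all genes), and Atp2a1 rose by 7.83 ± 0.11 (adjusted p = 1.7e-15), which is a fold of 227. The 24 h and 48 h libraries came in different tables, and the 48 and 120 h libraries carry a batch label that the 0 and 24 h ones lack, so time and batch cannot be told apart between them. From 48 to 120 h, 2 of the 5 changed (29.8% of all genes), and the Atp2a1 difference was 0.68 ± 0.14 (adjusted p = 0.00228), under the 2-fold limit.

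The 12 myotube markers, among them Myog, Acta1 and Ttn, moved with Atp2a1. Their summed level was 2.03 to 3.35 CPM at 0 h, 14.7 to 16.1 at 24 h and 15759 to 17206 at 48 h, and all 12 rose between 24 and 48 h. Of the 11 markers of proliferating myoblasts 10 fell from 0 to 24 h, 5 rose from 24 to 48 h and 10 fell from 48 to 120 h, their summed level being 2926 to 2937, 734 to 787, 1400 to 1436 and 325 to 360 CPM at the 4 times. The part of both lists in the result was not tested, and in bulk RNA a change in the share of myotubes and a change in RNA per cell cannot be told apart. Rabep2, which overlaps Atp2a1 on the opposite strand, lay between 5.10 and 13.6 CPM in the 120 h whole cultures and between 21.0 and 80.8 elsewhere, and the strand setting of the counting is not given in the sources used here.

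Atp2a2, the most widely expressed SERCA gene, was the main one in undifferentiated cells and remained abundant. Without dox its level was 208, 200 and 206 CPM at 0 h, 345, 314 and 293 at 24 h, 583, 577 and 556 at 48 h and 1672, 1642 and 1777 in whole cultures at 120 h. Each time point lay wholly above the one before. The differences from 0 to 24 h and from 24 to 48 h were 0.67 ± 0.06 (adjusted p = 3.4e-07) and 0.85 ± 0.07 (adjusted p = 5.84e-08), both under 2-fold, and from 48 to 120 h it rose by 1.59 ± 0.08 (adjusted p = 8.79e-07).

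Atp2a3 encodes SERCA3, better known from blood cells, endothelium and epithelia. Unlike Atp2a1 it did not increase at each step. Its level without dox was 1.97, 0.350 and 1.45 CPM at 0 h, 48.9, 50.1 and 45.2 at 24 h, 16.2, 17.6 and 14.4 at 48 h, and 86.0, 63.2 and 57.4 in whole cultures at 120 h. It rose by 5.33 ± 0.22 from 0 to 24 h (adjusted p = 5.5e-11), fell by 1.58 ± 0.08 on the log2 scale from 24 to 48 h (adjusted p = 1.1e-09) and rose by 2.12 ± 0.16 from 48 to 120 h (adjusted p = 5.05e-06). The groups did not overlap at any of these steps.

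Per kilobase of transcript, the make-up of the SERCA transcripts turned over. Atp2a2 gave 98.7% ± 0.74 of the SERCA counts per kilobase at 0 h without dox and 85.4% at 24 h, when Atp2a3 reached 13.2% and Atp2a1 was at 1.42%. At 48 h Atp2a1 gave 68.8% ± 1.12 and Atp2a2 30.4%, and in whole cultures at 120 h these shares were 53.7% ± 5.25 and 44.6% (SD, n = 3). The order at 120 h turned when counts were not divided by transcript length, with 39.8% for Atp2a1 and 57.8% for Atp2a2. So did the order in iCdh23 cells without dox (38.3% and 60.5%). With dox it turned in iMyoD1 cells at 48 h (47.4% and 51.6%) and in whole cultures at 120 h (46.0% and 53.6%). Each transcript was divided by its own length, 681 bases for the partial Atp2a1-202 and 3477 for Atp2a1-201. Over all libraries 14.5% of Atp2a1 counts were assigned to Atp2a1-202, whose part in these shares was not tested. The summed SERCA level without dox in iMyoD1 cells was 46.1 ± 1.26 CPM per kilobase at 0 h, 82.2 ± 6.31 at 24 h, 448 ± 27.7 at 48 h and 936 ± 77.9 at 120 h.

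**Figure D2:**
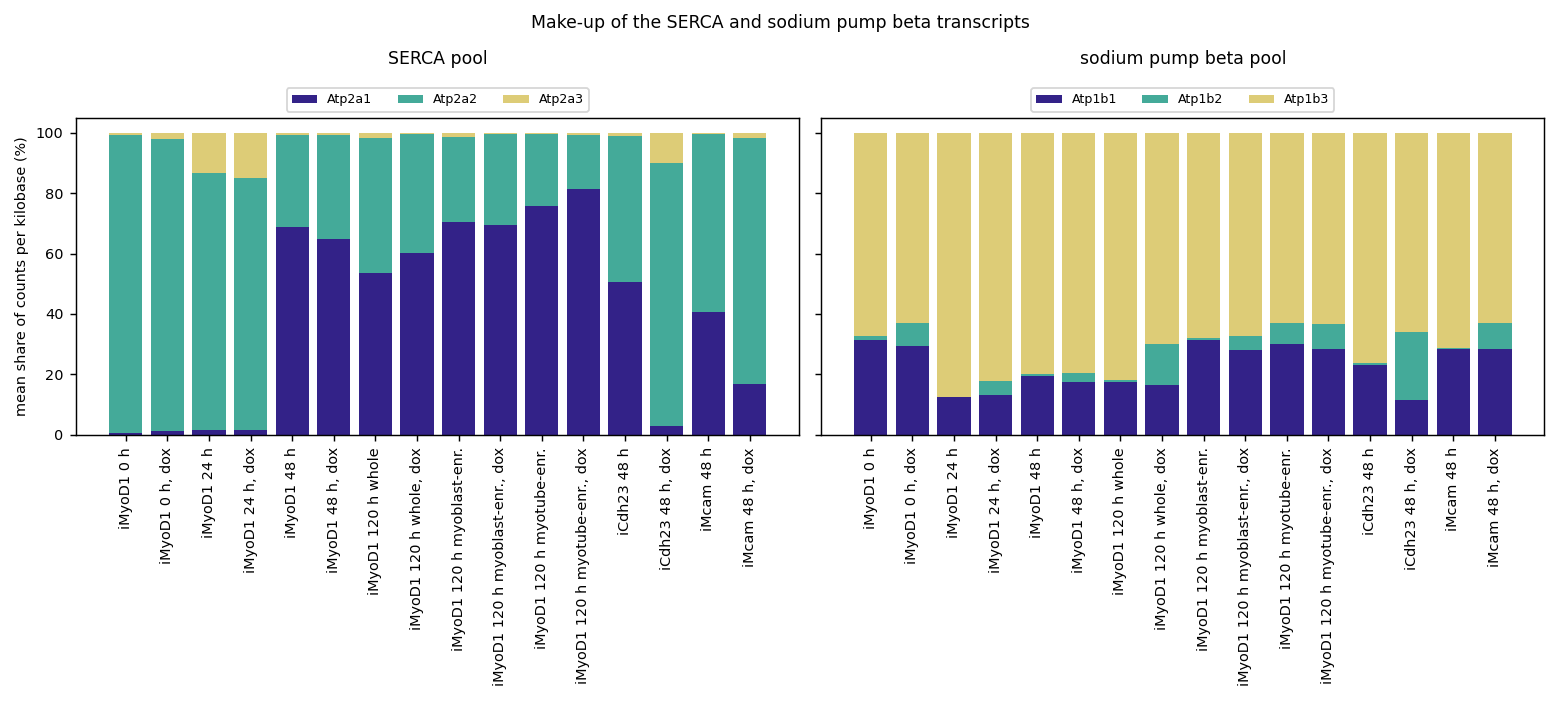
Mean share of each gene in the counts per kilobase of the 3 SERCA genes (left) and of the 3 sodium pump beta genes (right), in percent, for the 16 groups. Atp2a2 fills nearly the whole SERCA bar at 0 h and Atp2a1 over 50% of it at 48 h without dox in iMyoD1 and iCdh23 cells (38.3% in the latter without division by length), and the Atp1b2 segment is widest in iCdh23 cells with dox.

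The higher Atp2a2 counts at 48 and 120 h without dox were assigned mainly to its SERCA2a transcript. Atp2a2-202 was at 10.4, 9.99 and 17.03 CPM at 0 h, at 6.44, 16.3 and 10.7 at 24 h, at 365, 355 and 347 at 48 h and at 1377, 1390 and 1468 at 120 h. Atp2a2-201, the SERCA2b transcript, was at 183, 176 and 179 CPM at 0 h, at 317, 277 and 263 at 24 h, at 181, 171 and 171 at 48 h and at 241, 197 and 208 at 120 h. SERCA2a thus made up 6.08% ± 1.88 of the gene's counts at 0 h, 3.57% ± 1.66 at 24 h, 62.2% ± 0.62 at 48 h and 83.2% ± 1.24 at 120 h (SD, n = 3). These are descriptions with no test, and salmon divides reads from the shared part between the transcripts, so each share is an estimate.

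**Figure D3:**
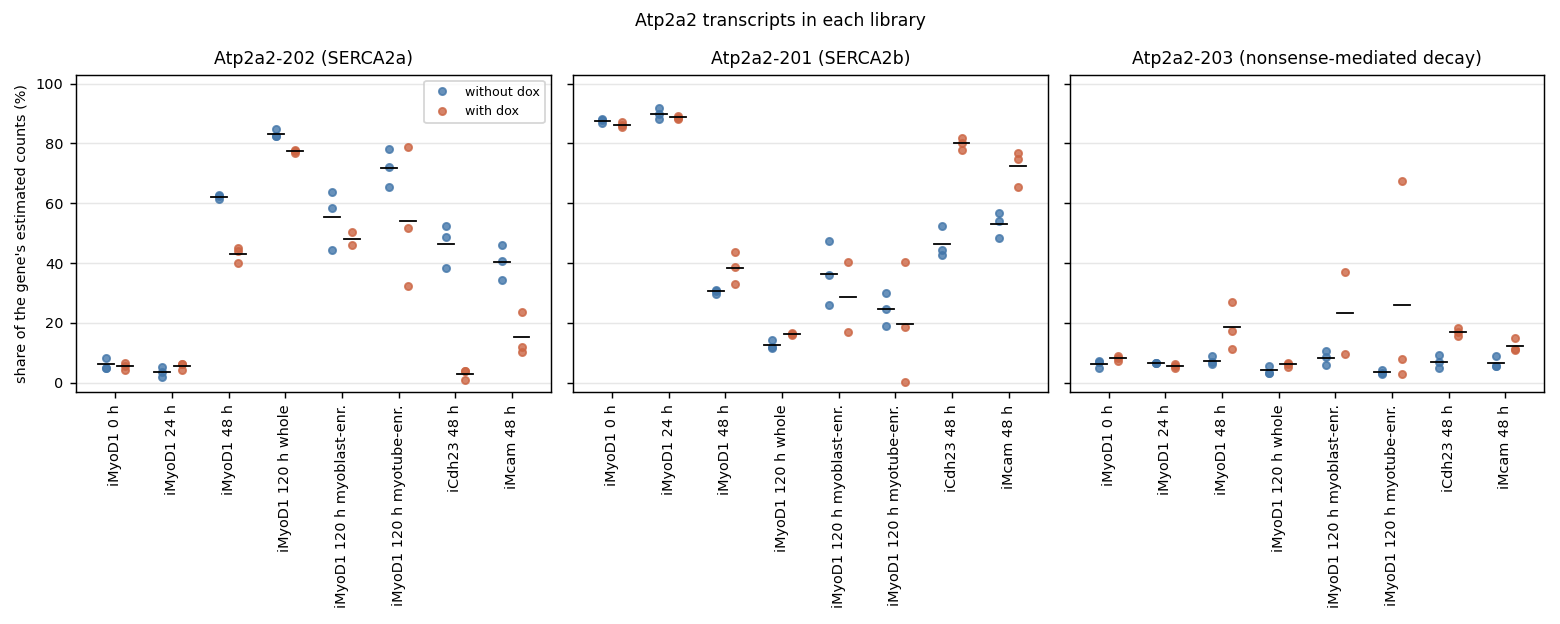
Share of Atp2a2 estimated counts given to its 3 main transcripts in each library, in percent; points are libraries without dox (blue) and with dox (orange), and black bars are group means. The SERCA2a share is under 10% at 0 and 24 h and over 60% at 48 h without dox in iMyoD1 cells, and in iCdh23 cells it is between 38.4% and 52.2% without dox and between 1.03% and 4.03% with it.

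With dox, Atp2a3 rose from 0 to 24 h and Atp2a1 from 24 to 48 h. From 0 to 24 h, 2 of the 5 genes tested changed (16.8% of all genes), Atp2a3 rising by 3.59 ± 0.10 (adjusted p = 6.01e-12). From 24 to 48 h, 3 changed (28.8% of all genes), Atp2a1 rising by 6.20 ± 0.13 (adjusted p = 3.77e-11) and Atp2a3 falling by a log2 of −3.17 ± 0.08 (adjusted p = 8.7e-11). From 48 to 120 h, 2 changed (36.4% of all genes), Atp2a1 rising by 1.78 ± 0.11 (adjusted p = 1.45e-08) and Atp2a2 by 1.87 ± 0.11 (adjusted p = 1.02e-08).

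In growth medium Atp2a1 and Atp2a3 were higher with dox. At 0 h, Atp2a1 was at 2.36, 2.47 and 2.15 CPM with dox against 1.73, 1.00 and 0.349 without, and Atp2a3 at 3.40, 4.50 and 5.09 CPM against 1.97, 0.350 and 1.45. Both with-dox groups lay above their controls, at levels that are low for both genes. Of the 5 genes tested, 2 changed, beside 4.27% of all genes. Atp2a1 rose by 1.22 ± 0.39 (adjusted p = 0.0242) and Atp2a3 by 1.81 ± 0.38 (adjusted p = 0.00195). The Atp2a1 call was lost without dox replicate 2, control replicate 2 or control replicate 3, at adjusted p = 0.0663, 0.0816 and 0.0936. Of the 12 myotube markers 4 could be tested at 0 h and 3 rose, the summed level being 6.05 to 6.59 CPM with dox and 2.03 to 3.35 without, and their part in these results was not tested. At 24 h none of the 5 genes changed by both criteria (13.2% of all genes), although edgeR's quasi-likelihood test gave adjusted p = 0.0492 for Atp2a2 (−0.17 ± 0.07) and adjusted p = 0.0498 for Atp1b3 (−0.13 ± 0.05). In CPM without TMM factors both means were instead higher with dox, at 328 against 306 for Atp2a2 and 125 against 113 for Atp1b3. The Atp2a3 dox effect was smaller at 24 h than at 0 h, by a log2 difference of −1.80 ± 0.31 (adjusted p = 0.000217), and 5.47% of all genes passed this test of the difference.

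At 48 h the direction in iMyoD1 cells was the opposite. Atp2a1 was at 343, 304 and 265 CPM with dox against 793, 762 and 678 without, and fell by 1.31 ± 0.10 on the log2 scale (adjusted p = 1.31e-06). Atp2a3 was at 5.72, 6.01 and 5.55 CPM against 16.2, 17.6 and 14.4, and fell by 1.49 ± 0.11 (adjusted p = 1.07e-06). Neither pair of groups overlapped. These were the 2 genes changed of the 5 tested, beside 14.4% of all genes. Atp2a2 was also lower in every library, at 383, 329 and 284 CPM against 583, 577 and 556, with a difference of −0.80 ± 0.10 (adjusted p = 4.35e-05) that did not reach 2-fold. Its SERCA2a transcript averaged 143 ± 29.4 CPM with dox and 356 ± 9.13 without, and SERCA2b 129 ± 37.0 and 174 ± 5.73. Of the 12 myotube markers 10 fell, from a summed 15759 to 17206 CPM to 6318 to 6472 CPM, and of the 11 markers of proliferating myoblasts 6 fell, from a summed 1400 to 1436 CPM to 645 to 654 CPM. The part of both lists in these results was not tested.

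By 120 h in whole cultures, Atp2a1 no longer separated the groups, and of the 3 SERCA genes Atp2a3 differed most. Atp2a1 was at 939, 1079 and 1103 CPM with dox and 1412, 1205 and 927 without, and these ranges overlapped (−0.20 ± 0.14, adjusted p = 0.297). Atp2a3 was at 8.26, 8.93 and 9.29 CPM against 86.0, 63.2 and 57.4, and fell by 2.98 ± 0.17 on the log2 scale (adjusted p = 2.07e-06), the 1 gene changed of the 5 tested (16.1% of all genes). Atp2a2 was at 1166, 1200 and 1260 CPM against 1672, 1642 and 1777, a difference of −0.50 ± 0.08 (adjusted p = 0.000917). Between 48 and 120 h the dox effect differed for Atp2a1 by 1.11 ± 0.19 (adjusted p = 0.000561) and for Atp2a3 by −1.49 ± 0.20 (adjusted p = 7.17e-05), with 13.1% of all genes passing. Without control replicate 3 at 120 h the Atp2a1 difference was 0.96, under the limit of 1. At 120 h 3 of the 12 myotube markers fell, from a summed 21632 to 25140 CPM to 15160 to 17351 CPM. Of the 11 markers of proliferating myoblasts 1 rose and 1 fell, 8 had a positive difference and the median log2 fold change was 0.67. The part of both lists in these results was not tested.

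**Figure D4:**
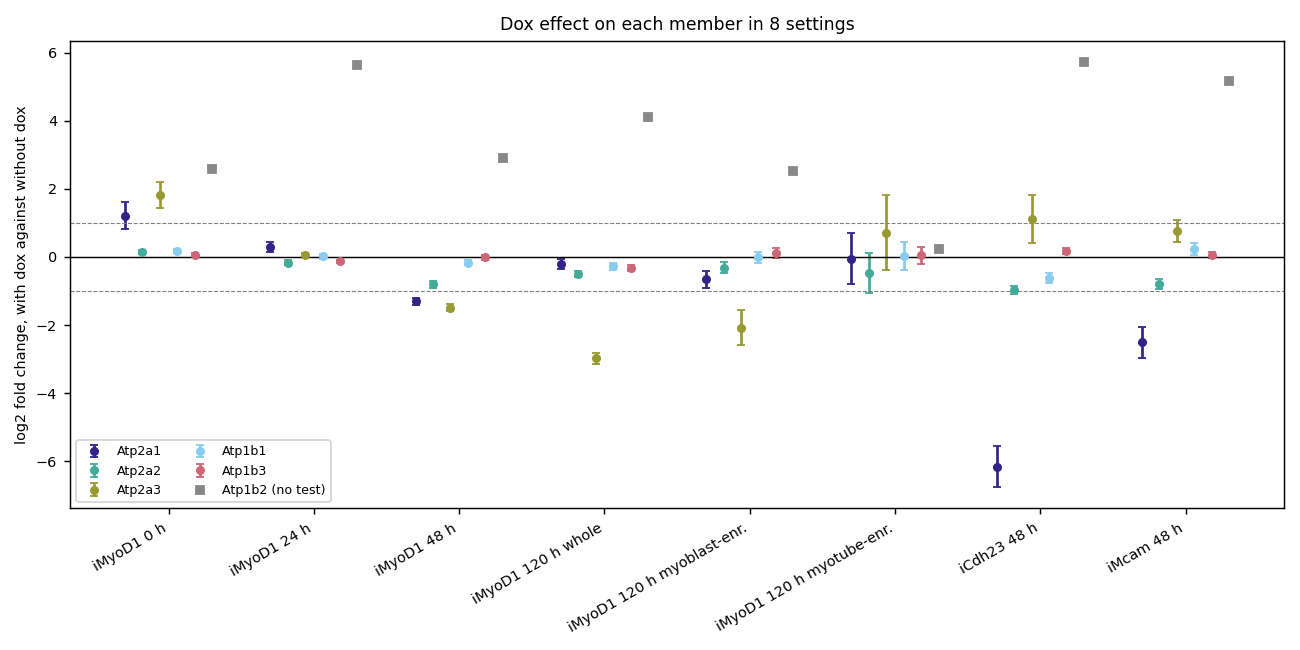
Log2 fold change with dox against without dox in the 8 settings for the 6 genes above the count filter; circles are edgeR estimates with bars of 1 SE, squares are Atp1b2, shown without error or test, and dashed lines mark the 2-fold limit. Atp2a1 lies above 0 at 0 h and 24 h and below 0 at 48 h in all 3 lines, lowest in iCdh23 cells at −6.16, while Atp1b3 stays within 0.33 of 0.

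The inhibitors Sln and Pln were at or near the detection limit. Sln, the sarcolipin gene, had no count in 27 of the 47 libraries and more than 3 in 4. Its highest values were 15 and 11 counts in whole cultures at 120 h with dox, where the third library had 2 and the controls 1, 0 and 0. Those 15 counts correspond to 0.660 CPM. Pln, the phospholamban gene, had no count in 25 libraries and more than 3 in 5, with a highest value of 20 counts (1.01 CPM) in the replicate 2 library labelled myotube-enriched with dox. A limit of 3 counts corresponds to between 0.0605 and 0.201 CPM across the libraries, for counting error only. Neither gene passed the count filter in any 2-group comparison, and none of the edgeR tests with all libraries covers them. Some alternatives called Sln. With dox at 120 h in whole cultures it was higher by 4.52 with DESeq2 (adjusted p = 0.029) and by 4.19 in edgeR without the low-count filter (adjusted p = 0.0461). Without that filter edgeR also called it higher with dox from 24 to 48 h (4.46, adjusted p = 0.0382) and from 48 to 120 h (2.39, adjusted p = 0.0425). With the filter, edgeR called Sln for dox at 120 h without control replicate 1 (adjusted p = 0.0375) or dox replicate 1 (0.0119). It did so from 48 to 120 h with dox without replicate 1 of 48 h (adjusted p = 0.0283) or of 120 h (0.00342). At these counts the size of such a difference rests on few reads.

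Among the beta subunits, Atp1b3 was the main one and moved least. It gave between 62.96% and 87.4% of the beta counts per kilobase over the 16 groups, and its group means lay between 109.8 and 239.9 CPM, a ratio of 2.19. Without dox it was at 116, 109 and 108 CPM at 0 h, 118, 114 and 122 at 24 h, 221, 201 and 209 at 48 h and 231, 237 and 252 in whole cultures at 120 h. The step from 24 to 48 h was 0.84 ± 0.06 (adjusted p = 2.3e-08), under 2-fold, and no dox comparison of Atp1b3 passed both criteria.

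Atp1b1, the widely expressed beta subunit, dipped at 24 h. Without dox it was at 60.0, 56.1 and 61.3 CPM at 0 h, 19.9, 19.6 and 21.2 at 24 h, 63.1, 71.1 and 63.6 at 48 h and 64.2, 64.8 and 64.9 in whole cultures at 120 h. The 24 h libraries lay below all others of the series, with and without dox. It fell by 1.51 ± 0.07 on the log2 scale from 0 to 24 h (adjusted p = 9.44e-11) and rose by 1.71 ± 0.07 from 24 to 48 h (adjusted p = 9.42e-11). With dox these steps were −1.67 ± 0.07 (adjusted p = 1.16e-10) and 1.49 ± 0.07 (adjusted p = 1.43e-08). Dox itself left Atp1b1 within 2-fold in all 8 settings. Nme7 overlaps Atp1b1 on the opposite strand. Its group means were 36.4 and 38.4 CPM at 0 and 24 h without dox and 19.4 at 48 h.

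Atp1b2, also described as an adhesion molecule on glia, was chosen for its difference with dox, and the values that follow only describe it. At 0 h it was at 22.9, 18.2 and 18.5 CPM with dox and 3.47, 3.45 and 3.09 without. At 24 h it was at 7.93, 9.18 and 9.50 CPM with dox and 0.203, 0.142 and 0.173 without, the last being 5, 4 and 5 counts. At 48 h it was at 13.3, 11.7 and 9.93 CPM with dox and 1.54, 1.55 and 1.47 without. These groups did not overlap, and the log2 fold changes were 2.59, 5.64 and 2.92. In whole cultures at 120 h the levels were 45.7, 42.6 and 45.2 CPM with dox and 3.15, 2.85 and 1.67 without, a log2 fold change of 4.11. In the myoblast-enriched fraction they were 18.2 and 20.1 CPM with dox and 1.92, 2.32 and 5.87 without (2.52). The myotube-enriched fraction was the exception: 13.7, 79.0 and 22.7 CPM in the libraries labelled with dox overlapped 13.7, 27.6 and 57.3 in those labelled without, and the log2 fold change was 0.24, or −0.93 without both replicate 2 libraries.

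In the other 2 lines the Atp1b2 difference had the same sign. It was at 102, 69.6 and 92.0 CPM with dox and 1.37, 1.21 and 2.34 without in iCdh23 cells, and at 32.4, 39.7 and 27.7 CPM with dox and 1.01, 1.21 and 0.630 without in iMcam cells. Neither pair overlapped, and the log2 fold changes were 5.73 and 5.18, again only a description of a gene chosen for such differences. Without dox the gene was also lower at 24 h than at any other time in iMyoD1 cells, as Atp1b1 was. Its share of the beta counts per kilobase was between 0.0897% and 1.42% without dox outside the myotube-enriched fraction, and with dox it was 3.04% at 48 h and 13.6% at 120 h in iMyoD1 whole cultures, 22.5% ± 4.41 in iCdh23 and 8.53% ± 1.97 in iMcam cells (SD, n = 3). The summed beta level was 104 ± 4.20 CPM per kilobase without and 136 ± 1.79 with dox in iCdh23 cells.

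Whether the 2 fractions at 120 h differed by the criteria depended on the tool, the low-count filter and the pairing of libraries. Without dox, Atp2a1 was at 1305, 1630 and 2760 CPM in the myotube-enriched and 493, 791 and 800 CPM in the myoblast-enriched libraries, and Atp2a2 at 790, 1121 and 1157 against 461, 544 and 550 CPM. Neither pair of groups overlapped. The differences were 1.47 ± 0.33 (adjusted p = 0.0945) and 1.00 ± 0.21 (adjusted p = 0.0817), so none of the 5 genes was called, beside 0.585% of all genes. Without both myotube-enriched replicate 2 libraries the differences were 1.56 (adjusted p = 0.117) and 0.92 (adjusted p = 0.127), 0.329% of all genes were called and again none of the 5. DESeq2 called both genes, at adjusted p = 0.000262 and 0.000274. The study's methods take both fractions from a culture by 1 strainer, but the labels do not say that a replicate number marks a shared culture. With replicate number as a block, Atp2a1 was called (1.43, adjusted p = 0.0162) and Atp2a2 was not, by its size (0.99, adjusted p = 0.0239). The share of all genes called by DESeq2 or with the block is not reported here, so these calls cannot be set beside it. With dox, no gene of the 5 and 0% of all genes changed between the fractions by edgeR, and Atp2a1 was at 806, 4100 and 505 CPM in the myotube-enriched libraries against 376 and 503 CPM. Without the replicate 2 library of the myotube-enriched fraction again 0% of all genes were called, and the Atp2a1 difference was 0.60 (adjusted p = 1). Of the 12 myotube markers 3 were higher in the myotube-enriched fraction without dox, also without both replicate 2 libraries, and their summed level was 17714 to 28725 CPM against 7246 to 11945 CPM. Of the 11 markers of proliferating myoblasts 1 was called lower there and the median was −1.10, with a summed level of 258 to 786 CPM against 627 to 1408 CPM, and with dox none was called (median −0.92). The part of both lists in these results was not tested.

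Within the fractions, dox changed none of the 5 genes in edgeR's test with all libraries, the filter and no block. In the myoblast-enriched fraction (3.03% of all genes called) Atp2a3 was at 4.57 and 9.22 CPM with dox and 14.03, 45.2 and 29.4 without. Those groups did not overlap, and the difference was −2.08 ± 0.51 (adjusted p = 0.0646). It passed with DESeq2 (adjusted p = 0.000186), without the low-count filter (1.27e-09), with replicate number as a block (0.00141) and without control replicate 1 (0.0265). The share of all genes called in these alternatives is not reported here. In the myotube-enriched fraction, where 0% of all genes were called, Atp2a3 was at 5.95, 108 and 5.81 CPM in the libraries labelled with dox and 19.7, 8.37 and 46.2 in those labelled without. The replicate 2 library labelled with dox held the highest and the one labelled without dox the lowest value of its group. The difference was 0.71 ± 1.10 (adjusted p = 0.998), and −2.45 without both replicate 2 libraries (adjusted p = 0.351). Atp2a1 and Atp2a2 went from −0.05 ± 0.75 and −0.47 ± 0.58 to −1.58 and −1.35 (adjusted p = 0.501 and 0.491) on leaving these 2 out. In the replicate 1 library with dox, 69.9% of Atp2a1 counts were assigned to Atp2a1-202, a short partial transcript, and 67.3% of Atp2a2 counts to Atp2a2-203, a transcript annotated for nonsense-mediated decay. In this library Atp2a2-201 received 0.116% of the Atp2a2 counts.

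Atp2a1 was lower with dox in both the iCdh23 and the iMcam line at 48 h. In iCdh23 cells it was at 3.34, 3.44 and 9.56 CPM with dox and 208, 358 and 608 without, and fell by 6.16 ± 0.60 on the log2 scale (adjusted p = 9.74e-05), a fold of 71.5. In iMcam cells it was at 24.6, 29.5 and 70.5 CPM with dox and 136, 253 and 340 without, and fell by 2.51 ± 0.47 (adjusted p = 0.00388). The groups did not overlap in either line. Atp2a1 was the only gene of the 5 tested to change in each, beside 30% of all genes in iCdh23 and 16.8% in iMcam cells. The effect was smaller in iMcam cells by a log2 difference of 3.62 ± 0.78 (adjusted p = 0.0129), with 6.49% of all genes passing that test.

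Atp2a2 was lower in both lines by less than 2-fold, with most of the difference assigned to SERCA2a. The gene was at 320, 277 and 283 CPM with dox against 495, 583 and 636 in iCdh23 cells (−0.96 ± 0.12, adjusted p = 0.000355), and at 309, 293 and 375 against 477, 569 and 687 in iMcam cells (−0.79 ± 0.15, adjusted p = 0.00464). SERCA2a was at 3.31, 11.2 and 11.0 CPM with dox against 190, 284 and 332 in iCdh23 cells, and at 31.5, 35.2 and 88.2 against 163, 230 and 317 in iMcam cells. SERCA2b averaged 235 ± 23.3 CPM with dox and 263 ± 7.95 without in iCdh23 cells, and 234 ± 10.1 and 303 ± 30.9 in iMcam cells. The SERCA2a share of Atp2a2 counts went from 46.5% to 2.99% and from 40.3% to 15.2%. As shares of all SERCA counts per kilobase, Atp2a1 went from 50.5% ± 9.13 to 2.89% ± 2.03 in iCdh23 and from 40.7% ± 6.36 to 16.8% ± 7.07 in iMcam cells (SD, n = 3).

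Levels of Atp2a3 and Atp1b1 also differed between the 2 induced lines with dox, while the difference between their dox effects in the lines was not called (−0.39 ± 0.93, adjusted p = 0.853, for Atp2a3 and 0.83 ± 0.25, adjusted p = 0.0534, for Atp1b1 in edgeR's quasi-likelihood test). In iCdh23 cells Atp2a3 was at 34.4, 33.9 and 27.4 CPM with dox and 3.59, 6.31 and 34.0 without, so control replicate 3 alone overlapped the with-dox libraries. The difference was 1.12 ± 0.71 (adjusted p = 0.204), and 2.69 without that library (adjusted p = 2.17e-05). In iMcam cells it was at 5.97, 8.31 and 5.30 CPM with dox and 2.80, 2.89 and 6.09 without (0.76 ± 0.33, adjusted p = 0.0947), and 1.22 without control replicate 3 (adjusted p = 0.00633). Compared directly with dox in both lines, 3 of the 5 genes differed, beside 11.4% of all genes. Atp2a1 was higher in iMcam by 2.95 ± 0.50 (adjusted p = 0.00205), Atp2a3 lower by a log2 of −2.26 ± 0.17 (adjusted p = 3.66e-05), and Atp1b1 higher by 1.35 ± 0.13 (adjusted p = 0.000126), at 112, 89.2 and 95.7 CPM against 46.3, 37.9 and 35.0. The Atp2a3 call was lost when all groups were fitted together (adjusted p = 0.159). Without dox none of the 5 genes differed between the lines (0.35% of all genes). These comparisons share libraries with the dox comparisons of each line.

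Of the 12 myotube markers, 12 fell with dox in iCdh23 cells, from a summed 6188 to 12022 CPM to 45.4 to 157 CPM (30% of all genes called), and 11 in iMcam cells, from 4547 to 11480 CPM to 599 to 1939 CPM (16.8%). The summed level of the 11 markers of proliferating myoblasts was also lower, at 191 to 241 against 1010 to 1265 CPM in iCdh23 and 241 to 331 against 872 to 1000.2 CPM in iMcam cells. Their part in the results was not tested.

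Other SERCA regulators and luminal calcium proteins, a list of 13 genes, moved with Atp2a1 in some comparisons and not in others. Between 24 and 48 h without dox 7 of the 12 tested rose and 1 fell (30.4% of all genes called), with a median log2 fold change of 3.74 beside −0.02 over all genes. Casq2, a calsequestrin that binds calcium inside the reticulum, rose by 10.47 ± 0.12 (adjusted p = 5.26e-16), and Hrc, a luminal protein that binds calcium and SERCA, by 9.42 ± 0.13 (adjusted p = 1.87e-15). From 0 to 24 h, when Atp2a1 also rose, 1 of 7 rose and none fell (26.1% of all genes; median −0.13), and from 48 to 120 h 1 of 12 rose and 2 fell (29.8%). With dox none rose and 7 of 12 fell in iCdh23 cells (30% of all genes), with a median of −1.93. Casq2 fell by 6.54 ± 0.59, Casq1 by 5.98 ± 0.92 and Hrc by 5.53 ± 0.40 on the log2 scale (adjusted p = 6.41e-05, 0.000918 and 2.5e-05). In iMcam cells 6 of 12 fell and none rose (median −1.04, beside 16.8% of all genes called), and in iMyoD1 cells at 48 h 6 fell and 1 rose (median −0.79, 14.4%). At 0 h in iMyoD1 cells 2 of 9 rose (4.27% of all genes called), Hrc by 2.16 ± 0.44 (adjusted p = 0.00151) and Mrln, myoregulin, a SERCA inhibitor of skeletal muscle, by 1.66 ± 0.41 (adjusted p = 0.00536). From 48 to 120 h with dox 4 of 12 rose and 1 fell (36.4%). Between fractions without dox, where Atp2a1 was not called, 3 of 12 were higher in the myotube-enriched one (0.585%), Casq1, Hrc and Tmem38a. Without both replicate 2 libraries 1 of 12 was (0.329%).

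Of 12 other sodium pump subunits and FXYD proteins, 6 had enough counts to be tested in each of the 4 comparisons that follow. Of these, 5 rose from 24 to 48 h without dox (30.4% of all genes called). With dox none rose, and 2 fell in iCdh23 cells (30% of all genes), 2 in iMyoD1 cells at 48 h (14.4%) and 3 in their whole cultures at 120 h (16.1%). At 120 h Fxyd6, a regulator of the sodium pump, fell with dox by 2.48 ± 0.22 (adjusted p = 2.87e-05).

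Of 11 genes that remove calcium by other routes, 6 to 8 were tested for dox in the whole cultures and in the 2 other lines, and they moved in both directions. In iCdh23 cells 1 of 8 rose and 1 fell (30% of all genes called). Slc8a2, a sodium-calcium exchanger best known from brain, rose by 5.35 ± 0.48 (adjusted p = 6.29e-05), and Slc8a1, the exchanger of heart muscle, fell by 3.27 ± 0.27 (adjusted p = 4.04e-05). In iMcam cells 1 of 7 rose and 1 fell (16.8% of all genes), again Slc8a2 and Slc8a1, by 2.23 ± 0.60 (adjusted p = 0.0178) and a log2 of −1.29 ± 0.22 (adjusted p = 0.00251). In whole cultures of iMyoD1 cells at 120 h 1 of 8 rose and 2 fell (16.1% of all genes), the latter Mcu, the pore of the mitochondrial calcium uniporter, by 1.28 ± 0.08 (adjusted p = 3.76e-06) and Slc8b1, the mitochondrial sodium-calcium exchanger, by 1.29 ± 0.24 (adjusted p = 0.00237). In iMyoD1 cells 2 of 7 rose and 1 fell at 24 h (13.2% of all genes), 1 of 6 fell at 48 h (14.4%), and none of 7 changed at 0 h (4.27%).

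Ordered by mean level over the 16 groups, most neighbours overlapped. Of the 15 neighbouring pairs, 10 overlapped for Atp2a1 and Atp2a2, 11 for Atp2a3, 13 for Atp1b1 and Atp1b3 and 9 for Atp1b2. The highest group mean was 1848 times the lowest for Atp2a1, 509 times for Atp1b2, 54.8 times for Atp2a3, 8.28 times for Atp2a2, 5.87 times for Atp1b1 and 2.19 times for Atp1b3. Without both myotube-enriched replicate 2 libraries these were 1978 times for Atp2a1 and 6.30 times for Atp1b1, and for the other 4 genes the same to the digits given, and the overlapping pairs were 9 for Atp2a1 and Atp2a2, 8 for Atp1b2 and as before for the other 3. The Atp2a1 ratio rests on the low 0 h controls, and was 1389 without control replicate 3 and 2814 without control replicate 1. Atp2a1, Atp2a2 and Atp2a3 were lowest at 0 h without dox, and Atp1b1 and Atp1b2 at 24 h without dox. Atp1b2 was highest in iCdh23 cells with dox, a group in which Atp2a1 was among the 5 lowest.

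Across the 16 group means on a log2 scale, the genes most like each of the 6 members averaging at least 5 CPM (all but Sln and Pln) were named among 10881 candidates, as a description over groups that share lines, batches and cultures. For Atp2a1 these were Trim72, Hrc and Tnni2 (Pearson r = 0.995, 0.994 and 0.993), and for Atp2a2 Riok3 and Pde4dip (0.985 and 0.982). Atp2a3 had Acp6, Otub2 and Leprotl1 (0.914, 0.893 and 0.884), and Atp1b1 had Gas7, Dusp1 and Ccn1 (0.919, 0.919 and 0.909). For Atp1b3 they were Uros, Nprl3 and Atraid (0.953, 0.932 and 0.928), and for Atp1b2, whose own pattern was the reason for its choice, Nedd4l, Rps6ka5 and Clcn2 (0.945, 0.932 and 0.926). Without both myotube-enriched replicate 2 libraries no r moved by more than 0.0189, and 14 of the 18 genes so chosen stayed among the first 3, Hrc, Tnni2 and Ccn1 being among those that did not.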

How the data were processed

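RNA was measured by poly(A) RNA-seq in 47 libraries. The authors deposited 3 tables of salmon estimated counts per transcript (12, 23 and 12 libraries, 109617 transcripts each), made with the nf-core/rnaseq pipeline and without scaling to depth. The labels name mm10, and the annotation release is not given in the sources used here. GENCODE vM21 (GRCm38) matched 98.72% of transcripts and gave symbols, positions and lengths.

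For each gene symbol the transcripts' estimated counts were added up, then rounded. Libraries were grouped by their labels. Levels are CPM with TMM factors over the 47 libraries, and levels between genes were compared only per kilobase. Each of 18 comparisons used its 2 groups, and 4 differences between dox effects their 4 groups, in edgeR 4.0.16 (R 4.3.3): filterByExpr, TMM, the quasi-likelihood test, Benjamini-Hochberg adjustment over all genes tested, and a fold limit of 2. Standard errors were derived from the F statistic. With 3 libraries against 3, an exact permutation test of a single value cannot go below p = 0.1. The procedure was tested on simulated counts. Totals of 15066338 to 50950674 limit the precision of genes with few counts, reads carried no molecular identifiers, and limits cover counting error only.

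No 2 libraries of a group agreed within sampling noise: over 46 pairs the chi-square per gene was 2.95 to 377.5. Of the comparisons with 3 pairs of same-numbered libraries, only dox in iMcam cells had a correlation of deviations over 0.1 in every pair (0.307, 0.19 and 0.376). That is a hint from the data, and not from the labels, that the numbers pair libraries there. The iMcam values in the Results come from the fits without pairing. A fit with replicate number as a block changed no call in that comparison (Atp2a1 −2.57, adjusted p = 0.000171).

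Alternatives were DESeq2 1.42.0, RLE factors, no low-count filter, all groups in 1 fit, the replicate block, leaving out each library, CPM without TMM, shares without length and transcript shares per kilobase. Leaving out both myotube-enriched replicate 2 libraries, and single libraries for the ranges of group means, was chosen after seeing the data. The 8 genes and the lists were chosen with earlier results of these data known. Named genes are the 8, up to 3 changed genes of each pathway list per comparison, those with the largest absolute log2 fold change, and the 3 genes with the highest correlation to each member averaging at least 5 CPM, across groups, among genes averaging at least 5 CPM, on log2(CPM + 0.5). Marker genes, Rabep2, Nme7 and Susd2 were named as checks. Of the genes so chosen, the text prints a part, and some are not reported here.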

Additional observations from a re-analysis of the deposited data

Results flagged for a closer look

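The effect of dox on 4 values differed between settings in edgeR's quasi-likelihood test of the difference itself (log2 scale, Benjamini-Hochberg adjusted, 3 libraries per group). For Atp2a3 the effect at 24 h minus that at 0 h was −1.80 ± 0.31 (adjusted p = 0.000217): all 3 libraries with dox lay above the controls at both times, with means of 4.33 against 1.26 CPM at 0 h and 51.4 against 48.0 CPM at 24 h. For Atp2a1 the effect in whole cultures at 120 h minus that at 48 h was 1.11 ± 0.19 (adjusted p = 0.000561), where means with and without dox were 304 and 744 CPM at 48 h and 1040.3 and 1181 CPM at 120 h. The Atp2a3 value for the same difference was −1.49 ± 0.20 (adjusted p = 7.17e-05), from 5.76 and 16.05 CPM at 48 h and 8.83 and 68.9 CPM at 120 h. For Atp2a1 the effect in iMcam minus that in iCdh23 cells was 3.62 ± 0.78 (adjusted p = 0.0129), from 41.5 and 243 CPM in iMcam and 5.45 and 391 CPM in iCdh23 cells. These 4 values were the ones past the limits of 20 tested (5 genes in 4 differences). Of all genes, 5.47% passed for 24 against 0 h and 13.1% for 120 against 48 h. Between fractions 0% passed, and 6.49% for iMcam against iCdh23 cells.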

How the results depend on the processing

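RLE factors changed no call. Shares of all genes called are given for the main edgeR tests and for leaving out both myotube-enriched replicate 2 libraries only. In whole cultures at 120 h the count of genes changed with dox was 1, and 2 with DESeq2 or without the low-count filter, the second being Sln, which has at most 15 counts. In the myoblast-enriched fraction it was 0, and 1 (Atp2a3) with DESeq2, without the filter or with the replicate block. Between fractions without dox it was 0, 2 with DESeq2 (Atp2a1 and Atp2a2), 1 without the filter and 1 with the replicate block (Atp2a1, 1.43, adjusted p = 0.0162). Same-numbered libraries there correlated at 0.374, 0.091 and 0.165, and the 2 pairs for dox in the myoblast-enriched fraction at 0.39 and 0.282, too few to decide. Neither was taken as paired. The block changed no other call, and the cause was not tested. Leaving out 1 library gave counts of 1 to 2 for dox at 0 h, in whole cultures at 120 h, in iCdh23 and in iMcam cells, 0 to 1 in the myoblast-enriched fraction, 0 to 2 between fractions without dox, and 1 to 2 for the differences in dox effect of 24 against 0 h, 120 against 48 h and iMcam against iCdh23. From 48 to 120 h with dox, leaving out replicate 1 of 48 h or of 120 h added a call of Sln.

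No value that changed sign was a call. Atp1b1 at 24 h with dox was −0.031 with all groups in 1 fit and −0.042 to 0.057 over single libraries left out. In the myotube-enriched fraction with dox the replicate block gave −0.79 for Atp2a3 and −0.073 for Atp1b1, and leaving out both replicate 2 libraries gave −2.45 and −0.18. That same omission gave 0.17 for Atp2a3 between fractions without dox, −0.13 for Atp2a2 and −0.22 for Atp2a3 between fractions with dox, and −0.97, −0.40 and −0.19 for Atp2a1, Atp2a3 and Atp1b1 in the difference of dox effects between fractions. Over single libraries left out, the dox difference ran from −0.043 to 0.05 for Atp1b3 at 48 h, −0.17 to 0.14 for Atp1b1 in the myoblast-enriched fraction, and in the myotube-enriched fraction −1.49 to 0.37 for Atp2a1, −2.04 to 1.53 for Atp2a3, −0.32 to 0.36 for Atp1b1 and −0.074 to 0.141 for Atp1b3. Atp1b1 from 48 to 120 h without dox ran from −0.047 to 0.05. Between fractions without dox the ranges were −1.05 to 0.20 for Atp2a3, −0.11 to 0.24 for Atp1b1 and −0.028 to 0.172 for Atp1b3, and with dox −0.13 to 1.25 for Atp2a2, −0.22 to 3.16 for Atp2a3, −0.14 to 0.49 for Atp1b1 and −0.064 to 0.004 for Atp1b3. Between lines they were −0.11 to 0.15 for Atp2a2 without dox and −0.102 to 0.001 for Atp1b3 with dox. For the difference of dox effects between fractions they were −0.87 to 1.02 for Atp2a1, −1.13 to 0.23 for Atp2a2, −0.31 to 0.35 for Atp1b1 and −0.214 to 0.003 for Atp1b3, and between lines −1.96 to 0.10 for Atp2a3. CPM without TMM moved 29 of 128 group levels by more than their SD, shares without length 67 of 96, and transcript shares per kilobase 81 of 196.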
